A study of Sus scrofa with 9 samples.

Results

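The Hedgehog pathway was followed through 9 of its genes in the developing molar of the miniature pig: the ligand SHH, the receptor PTCH1, the ligand-binding inhibitor HHIP, the co-receptors GAS1 and BOC, the signal transducer SMO, and the transcription factors GLI1, GLI2 and GLI3. They were chosen by gene symbol from the 34580 genes and transcripts listed. All 9 were found and all 9 passed the filter on low values. RNA of mandibular deciduous molar (Dm3) germs was sequenced in 3 libraries each at embryonic day 40 (E40), when the germ is at the cap stage, at E50, when it is at the early bell, and at E60, when it has reached the late bell. The fetuses were taken by cesarean section from miniature pig sows anesthetized with ketamine and xylazine, and the labels separate the stages by fetal age only, with no treatment or genetic change of the germ. Values are FPKM, the fragments mapped to a gene divided by the length of its exons and by all mapped fragments of the library. Levels can thus be set side by side between genes. Between libraries the FPKM of the typical gene still differed, so results after a further scaling are given beside them in places.

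Hedgehog signaling is started by a secreted ligand that binds Patched at the surface of a receiving cell. Patched without ligand holds Smoothened inactive, and once it is bound, Smoothened acts through the primary cilium on the GLI factors, with GLI1 and GLI2 mostly activating and GLI3 mostly repressing target genes. PTCH1, HHIP and GLI1 are themselves targets of the pathway, so that their RNA is widely used as a readout, while GAS1 and BOC help the ligand to bind and are typically lowered by signaling. In the tooth, SHH is made by the dental epithelium, including the enamel knot, and acts on both the epithelium and the mesenchyme of the papilla and follicle.

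The libraries fell into 2 sets by depth, 1 with all E40 libraries and the other with all E50 libraries, while E60 was divided between them. From the steps of the FPKM values, 938527 to 1323530 reads were recovered for the E40 libraries, 14362235 to 16674750 for the E50 libraries, 16124836 for E60 library 1, and 1380822 and 1760356 for E60 libraries 2 and 3. Over the genes tested, Pearson's r was 0.959 to 0.983 among the 4 deeper libraries, 0.743 to 0.838 among the 5 shallower ones and 0.302 to 0.609 between the sets. For E40 against E50, stage and library set cannot be told apart. Only E60 holds libraries of both sets, so E60 library 1 was also compared with E50, and E60 libraries 2 and 3 with E40. Markers of dental epithelium summed to 3346 to 4813 FPKM at E40, 2277 to 3200 at E50 and 1254 to 3813 at E60. Of 7 such markers 6 were listed, 1 of them at 0 in every library. Those of dental mesenchyme, all 7 above 0, summed to 1478 to 2285, 5273 to 5986 and 1404 to 6431 FPKM. Endothelial markers, 2 of 3 listed, summed to 16.8 to 20.2, 47.5 to 51.4 and 15.3 to 56.2 FPKM. CDH1, a defining epithelial adhesion gene, was listed at 0 in every library, and such a 0 in a table of FPKM can be a failed estimate, so nothing is drawn from it or from the other genes listed at 0 throughout. In such whole germs, fewer cells of a type and less RNA per cell cannot be told apart. The labels do not say whether the libraries of a stage came from separate animals, so p-values measure the spread between these libraries only.

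From E40 to E50, SHH, PTCH1 and HHIP rose and GAS1 fell over the 9 libraries, that is 3 of the 9 genes upward, beside 16.8% of all genes tested, and 1 downward, beside 21.8%. From E50 to E60 none of the 9 passed the test over 9 libraries, beside 0.0714% of all genes in either direction. At an unadjusted p under 0.05 by limma were 3 of the 9, beside 5923 of the 19618 genes tested. By limma-voom on the recovered reads 0 of the 9 were called, beside 0.311% of all genes. From E40 to E60, none passed it upward (0.663% of all genes) and GAS1 fell (1.14% of all genes). These calls came from limma on log2(FPKM + 0.1) with Benjamini-Hochberg adjustment over 19618 genes, with limits of 0.05 for the adjusted p and of 1, up or down, for the log2 fold change. All fold changes below are on that scale, which understates the change of low genes. Without E60 library 1, over 8 libraries and 19493 genes, SHH and HHIP also passed upward from E40 to E60 (1.37% of all genes) and GAS1 downward (4.68%), a comparison in which both stages are of the shallower set.

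SHH, the ligand, was the highest of the 9 genes at every stage. It stood at 54.6, 43.2 and 73.1 FPKM in the E40 libraries 1, 2 and 3, at 168, 141 and 180 FPKM at E50, and at 171, 110 and 220 FPKM at E60, which is above 95.4% to 97.4% of all listed genes and transcripts at E40 and above 98.7% to 99.3% at the later stages. All E50 and all E60 libraries were above all E40 libraries, and the E50 libraries lay inside the range of E60. The stage means were 57.0 ± 15.1, 163 ± 19.9 and 167 ± 55.2 FPKM (SD, n = 3). SHH rose 2.91-fold between E40 and E50, a log2 fold change of 1.54 (SE 0.37) with an adjusted p of 0.0160 by limma. Between E50 and E60 it was -0.02 (SE 0.37, adjusted p = 0.973, limma), and 0.76 after median-ratio scaling, which sets the typical gene equal between libraries (adjusted p = 0.202).

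From E40 to E60, the SHH change of 1.52 (SE 0.37) missed the threshold over the 9 libraries (adjusted p = 0.0835, limma). It passed narrowly over the 8 libraries at 1.48 (SE 0.36, adjusted p = 0.04996). Within the shallower set alone, with the spread taken from those 5 libraries, it was again 1.48 with an adjusted p of 0.130. The rise rested on few reads at E40, with 62, 55 and 117 reads there against 183 and 468 in E60 libraries 2 and 3, and the exact Poisson 95% interval of the lowest E40 value ran from 32.6 to 56.3 FPKM, counting error only. Relative to KRT5 and KRT14, keratins of basal epithelium, and to the basal factor TP63, SHH was also higher in every later library than in every E40 library. The ratio of SHH to KRT14 was 0.0541 to 0.0764 at E40, 0.301 to 0.380 at E50 and 0.208 to 0.332 at E60, and that to TP63 was 2.23 to 3.58, 6.59 to 8.97 and 4.50 to 9.84. The ratio to EPCAM, a surface marker of epithelium, did not separate E40 (2.23 to 5.03) from E50 (2.33 to 3.26), and at E60 it was 2.53 in library 1 and 12.2 and 11.8 in libraries 2 and 3. These markers were taken after CDH1 was seen to be at 0.

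**Figure D1:**
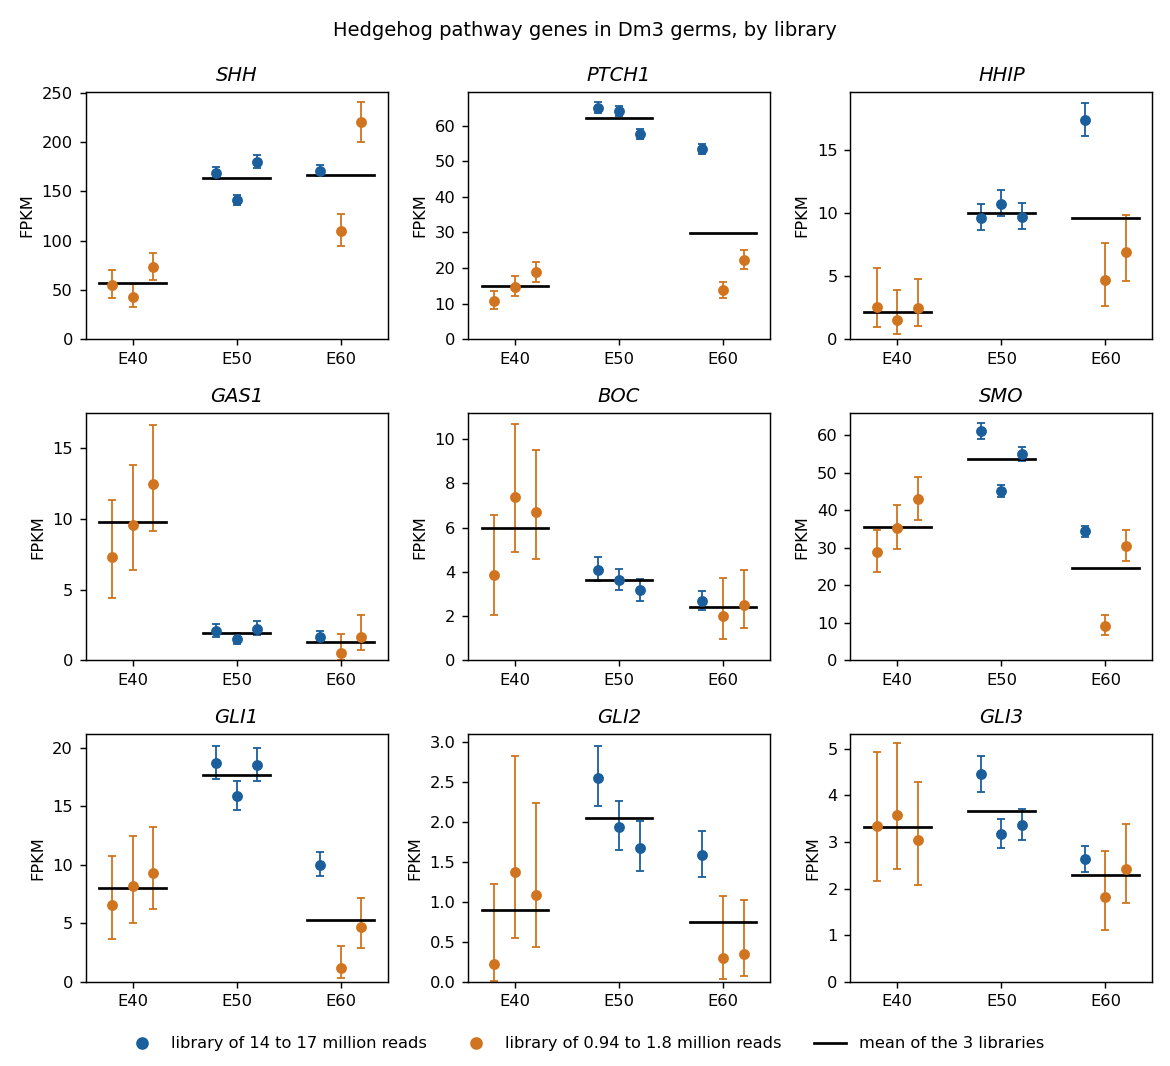
FPKM of the 9 Hedgehog pathway genes in each library, with a panel and linear axis per gene starting at 0. Points are libraries 1, 2 and 3 of each stage from left to right, coloured by recovered depth, with exact Poisson 95% intervals of the reads behind them (counting error only), and the black lines are stage means. SHH and HHIP are above E40 in every later library, GAS1 is below it, and GLI1 and PTCH1 at E60 split by depth.

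PTCH1, the receptor that binds SHH and restrains SMO, was second in level at E50 and E60. Its level was 10.9, 14.8 and 18.8 FPKM at E40, 65.0, 64.1 and 57.5 FPKM at E50, and 53.4, 13.7 and 22.2 FPKM at E60. Every E50 library was above every E40 and E60 library, E60 library 1 stood near E50, and E60 libraries 2 and 3 stood near E40. The means were 14.8 ± 4.0, 62.2 ± 4.1 and 29.8 ± 20.9 FPKM (SD, n = 3). PTCH1 rose 4.27-fold from E40 to E50 (log2 fold change 2.09, SE 0.48, adjusted p = 0.0149, limma). The difference from E50 to E60 was -1.29 over 9 libraries (SE 0.48, adjusted p = 0.164), and -1.82 over the 8 (SE 0.31, adjusted p = 0.00118), where the sets again divide the stages. Against libraries of like depth, PTCH1 in E60 library 1 was 0.22 below the E50 mean on the log2 scale. In E60 libraries 2 and 3 it was 0.08 below and 0.61 above the E40 mean. After median-ratio scaling, however, PTCH1 was higher in every E60 library than in every E40 library. The summed mesenchyme and endothelium markers were likewise higher at E50 than in any E40 library. Of the mesenchyme list, VIM, COL1A2 and COL3A1 were higher in this way, while MSX1, PRRX1 and COL1A1 overlapped between E40 and E50. TWIST1 overlapped as well, with a lower mean at E50 (47.5 FPKM) than at E40 (66.6 FPKM). The part of these markers in the values of PTCH1, HHIP and GLI1 was not tested.

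HHIP, which binds Hedgehog ligand at the cell surface and limits its spread, started lowest but for GLI2. It stood at 2.58, 1.53 and 2.44 FPKM at E40, at 9.60, 10.7 and 9.70 FPKM at E50, and at 17.3, 4.67 and 6.87 FPKM at E60. All libraries of E50 and E60 lay above all of E40, and E60 library 1 was the highest of the 9. HHIP rose 4.53-fold from E40 to E50 (log2 fold change 2.18, SE 0.52, adjusted p = 0.0156, limma), although the E40 values rest on 6, 4 and 8 reads. From E40 to E60 the change was 1.90 over 9 libraries (SE 0.52, adjusted p = 0.120) and 1.37 over the 8 (SE 0.33, adjusted p = 0.0482). Within the shallower set alone HHIP did not pass, where 0 of the 9 genes did, beside 1.30% of all genes. Within the deeper set, E60 library 1 was 0.79 above E50 on the log2 scale (adjusted p = 0.0277, limma), under the fold limit. The spread in that fit comes from the E50 libraries alone, and the single E60 library is assumed to vary like them. Over all 9 libraries the E50 to E60 difference was -0.28, of the opposite sign (adjusted p = 0.684), and after median-ratio scaling 0.49.

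GAS1, a membrane-anchored co-receptor that promotes SHH binding, was the gene that fell. Its values were 7.29, 9.58 and 12.5 FPKM at E40, 2.06, 1.53 and 2.25 FPKM at E50, and 1.67, 0.521 and 1.64 FPKM at E60. Every E40 library was above every later library, whichever the depth, while E50 and E60 overlapped. The log2 fold change was -2.25 from E40 to E50 (SE 0.55, adjusted p = 0.0163) and -2.96 from E40 to E60 (SE 0.55, adjusted p = 0.0316), and -3.22 over the 8 libraries (SE 0.49, adjusted p = 0.0105, limma). Within the shallower set alone the same -3.22 had an adjusted p of 0.0509. The E60 values of libraries 2 and 3 rest on 2 and 8 reads, against 19, 28 and 46 at E40.

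BOC, another co-receptor of the cell surface, was 3.85, 7.40 and 6.72 FPKM at E40, 4.10, 3.63 and 3.17 FPKM at E50, and 2.69, 2.01 and 2.53 FPKM at E60. E60 lay below both other stages without overlap, though the difference from E50 turned to 0.18 after median-ratio scaling, and E40 and E50 overlapped through E40 library 1. The difference did not pass the test from E40 to E50 (-0.66, adjusted p = 0.226) or from E40 to E60 (-1.24, adjusted p = 0.208, limma). After median-ratio scaling BOC was lower at E50 than at E40 by -1.30 (adjusted p = 0.0265). Skeletal muscle markers moved with both co-receptors. With 4 of 5 markers listed, their sum was 187 to 285 FPKM at E40, 20.9 to 24.7 at E50 and 5.90 to 13.3 at E60, and the defining factor MYOD1 was 0 in E40 library 1 and in all E60 libraries. Their part in the GAS1 and BOC values was not tested. Of the other co-receptors, CDON was listed at 0 in every library, and LRP2, a large endocytic receptor, had 0, 0 and 1 reads at E40, 84, 127 and 73 at E50, and 42, 0 and 2 at E60.

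SMO, the transducer held in check by PTCH1, was the second highest gene at E40. It was measured at 28.8, 35.3 and 42.9 FPKM at E40, 61.1, 45.0 and 55.0 FPKM at E50, and 34.4, 9.14 and 30.4 FPKM at E60. The E50 libraries were above all others, the nearest being E40 library 3, and E60 library 2 was far below the rest. The typical gene was lowest in E60 library 2 too, with a median-ratio factor of 0.512 beside 0.792 to 1.46 in the other libraries. No comparison over 9 libraries passed for SMO, with 0.60 from E40 to E50 (SE 0.50, adjusted p = 0.337, limma) and -0.06 after median-ratio scaling. From E50 to E60 it was -1.32 (adjusted p = 0.164, limma). Over the 8 libraries, where the sets again divide the stages, it was -1.67 (SE 0.46, adjusted p = 0.0131, limma). After median-ratio scaling that change was -0.57 and no longer a call.

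GLI1, the factor whose own transcription follows pathway activity, had its highest values at E50. It stood at 6.54, 8.17 and 9.27 FPKM at E40, at 18.7, 15.9 and 18.5 FPKM at E50, and at 10.01, 1.18 and 4.65 FPKM at E60. All E50 libraries were above all others, and E60 ranged from below to above E40. The values of E60 libraries 2 and 3 rest on 4 and 20 reads, and the exact Poisson 95% interval of the former ran from 0.323 to 3.03 FPKM. GLI1 missed the threshold from E40 to E50 (1.15, SE 0.66, adjusted p = 0.178, limma) and from E50 to E60 (-2.17, SE 0.66, adjusted p = 0.164). Over the 8 libraries, where the sets again divide the stages, the E50 to E60 change was -2.85 (SE 0.49, adjusted p = 0.00137, limma). After median-ratio scaling it was -1.77 there (adjusted p = 0.00304, limma) and still a call. That scaling uses 1 factor per library and cannot separate stage from set for a single gene. Within the deeper set E60 library 1 was lower than E50 by -0.81 (adjusted p = 0.0241, limma, with the spread of the E50 libraries alone and 1 E60 library), under the fold limit, and within the shallower set E60 libraries 2 and 3 were 2.64 and 0.76 below the E40 mean on the log2 scale, or -1.70 together (adjusted p = 0.206).

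GLI2, the main activator of the first response, was the lowest of the family and the least certain. Its values were 0.219, 1.37 and 1.09 FPKM at E40, 2.55, 1.94 and 1.67 FPKM at E50, and 1.58, 0.298 and 0.350 FPKM at E60. E50 was highest without overlap, but the shallower libraries held 1 to 7 reads each, and 3 reads or fewer, taken here as the floor, lay behind E40 library 1 and E60 libraries 2 and 3. No change passed over 9 libraries (1.37 from E40 to E50, adjusted p = 0.195, limma). Over the 8 libraries, where the sets again divide the stages, the E50 to E60 change of -2.33 did (adjusted p = 0.0197, limma), but not after median-ratio scaling (-1.37).

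GLI3, the main repressor, varied least. It was 3.35, 3.59 and 3.04 FPKM at E40, 4.45, 3.17 and 3.36 FPKM at E50, and 2.63, 1.82 and 2.43 FPKM at E60. E40 and E50 overlapped, and all E60 values lay below them. GLI3 changed by 0.12 from E40 to E50 (SE 0.42, adjusted p = 0.816), which turned to -0.52 after median-ratio scaling, and by -0.65 from E50 to E60 (SE 0.42, adjusted p = 0.253, limma), which turned to 0.10.

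**Figure D2:**
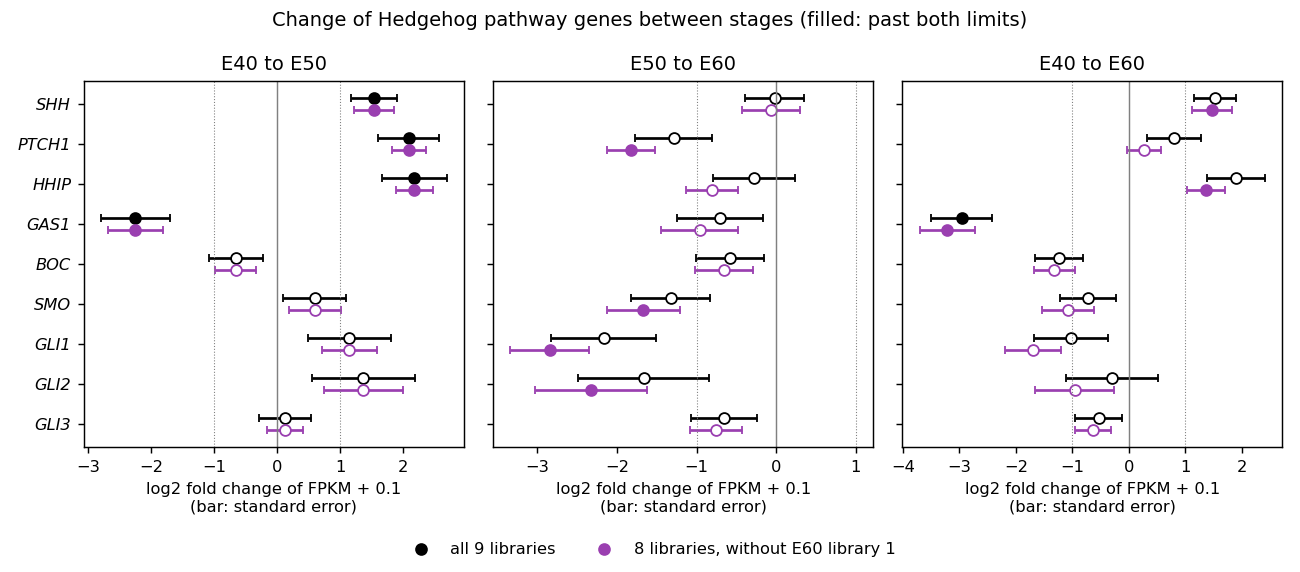
Log2 fold change of FPKM + 0.1 between stages for the 9 genes, one panel per comparison, over all 9 libraries (black) and over the 8 without E60 library 1 (purple). Bars are standard errors, dotted lines are the fold limit, and filled points passed both the fold and the adjusted p limit. From E40 to E50 the same 4 genes are filled in both fits, and from E50 to E60 points are filled only without E60 library 1.

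Counted without a test, 6 of the 9 genes were higher at E50 than at E40 with no overlap between libraries (45.2% of all genes tested) and GAS1 was lower (27.8%). After median-ratio scaling SHH, PTCH1, GLI1 and HHIP were higher (29.5%) and GAS1 and BOC lower (36.0%). From E50 to E60, PTCH1, SMO, GLI1, GLI2, GLI3 and BOC were lower without overlap (21.6% of all genes). After scaling GLI1 was lower (8.76%) and SHH and HHIP were higher (12.2%). Against E40, SHH and HHIP were higher at E60 without overlap (3.89%), and GLI3, GAS1 and BOC were lower (19.0%), while after scaling SHH, PTCH1 and HHIP were higher (10.6%) and SMO, GLI1, GAS1 and BOC lower (10.8%). Over the 8 libraries, SHH, PTCH1 and HHIP again passed upward from E40 to E50 (30.5% of all genes) and GAS1 downward (24.2%), while PTCH1, SMO, GLI1 and GLI2 passed downward from E50 to E60 (39.1%). The median log2 change over all genes tested was 0.55 for the step to E50 and -0.64 for the step to E60, beside 1.15 and -0.71 over the 9 genes. Median-ratio scaling brought the medians over all genes to -0.09 and 0.08. With that scaling, PTCH1 and HHIP rose (12.2% of all genes) and GAS1 and BOC fell (24.9%) from E40 to E50, while SHH, at 0.88, no longer reached the fold limit. From E40 to E60 over 9 libraries, 2 of the 9 genes then passed upward (2.05% of all genes) and 1 downward (1.62%). With median-ratio scaling over the 8 libraries, SHH rose (25.6% of all genes) and GLI1 fell (12.2%) from E50 to E60. In all fits over the 8 libraries, stage and library set cannot be told apart for E50 against E60.

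The calls depended on single libraries, for all genes as for the 9. From E40 to E50, none of the 9 genes passed without E40 library 1 (1.09% of all genes, in either direction), without E50 library 2 (0.297%) or without E50 library 3 (0.297%), 1 passed without E40 library 2 (17.1%) and 3 without E50 library 1 (17.6%). In these fits the adjusted p of SHH, PTCH1, HHIP and GAS1 by limma was 0.0480 to 0.0680, and the log2 fold change was 1.36 to 2.31, or -2.10 to -2.45 for GAS1. The GAS1 call from E40 to E60 was lost without any 1 of the E40 or E50 libraries (adjusted p = 0.0788 to 0.113, limma). Without E40 libraries 1, 2 and 3 in turn, 0.863%, 0.689% and 1.02% of all genes were called there. Without E50 libraries 1 and 2 the shares were 0.670% and 0.655%. Without E60 library 2 the log2 fold changes of SHH and HHIP from E40 to E60 were 1.80 and 2.30. With the library set as a term of the fit, no gene of the 9 passed from E40 to E50, beside 0.255% of all genes, where SHH was 1.40, PTCH1 0.49, HHIP 0.58 and GAS1 -3.03 (adjusted p = 0.289 to 0.907 for these 4).

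**Figure D3:**
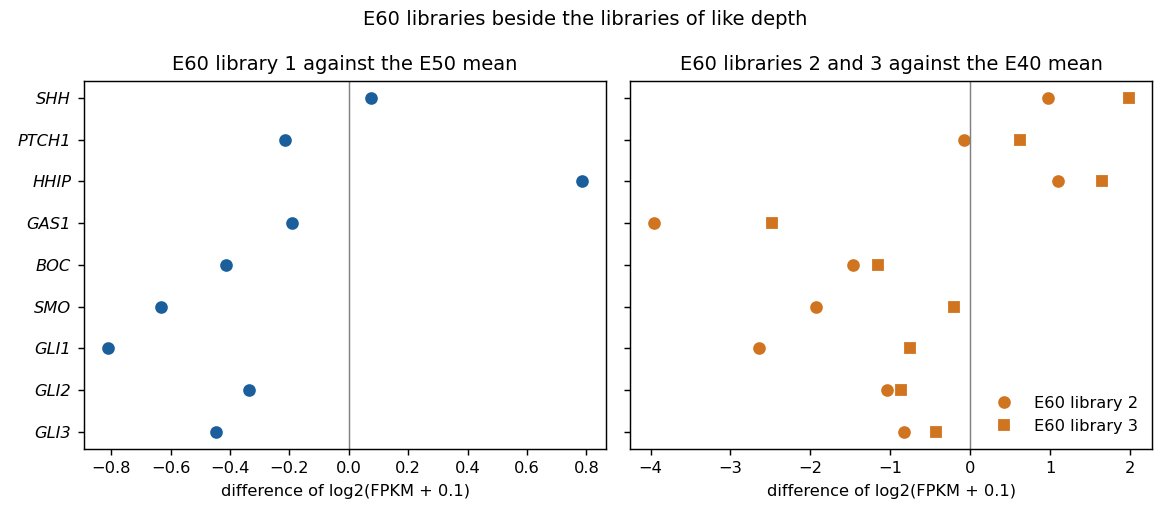
Difference of log2(FPKM + 0.1) of each E60 library from the mean of the libraries of like depth: E60 library 1 from E50 (left) and E60 libraries 2 and 3 from E40 (right), each point a single library, with different axis ranges. HHIP is right of 0 and GLI1, SMO, GAS1, BOC, GLI2 and GLI3 are left of 0 in all 3 E60 libraries.

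Set beside libraries of like depth, the 3 E60 libraries shared a direction for 8 of the 9 genes, 2 higher, beside 9.48% of all genes tested, and 6 lower, beside 32.9%. The same 8 genes shared it after median-ratio scaling, beside 20.5% and 17.9% of all genes. SHH was 0.07, 0.98 and 1.98 above its comparison stage in E60 libraries 1, 2 and 3 on the log2 scale, and HHIP was 0.79, 1.10 and 1.64 above. GLI1 was 0.81, 2.64 and 0.76 below, SMO 0.63, 1.93 and 0.21 below, and GAS1 0.19, 3.96 and 2.48 below. BOC, GLI2 and GLI3 were below in all 3 as well, by 0.34 to 1.47, and PTCH1 alone differed in sign, at -0.22, -0.08 and 0.61. The comparison stage was E50 for library 1 and E40 for the others, so the 3 differences do not measure a single interval.

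Ratios of 2 genes within a library do not move with the scaling between libraries, apart from the small effect of the pseudocount. The ratio of GLI1 to GLI3, of the target-type activator to the repressor, was 1.23 ± 0.32 at E40, 2.25 ± 0.19 at E50 and 0.74 ± 1.24 at E60 on the log2 scale (SD, n = 3). E50 was above every E40 and every E60 library, and the exact two-sided permutation p was 0.1 for both, the smallest that 3 against 3 libraries can give, with 0.18 after adjustment over the 9 comparisons run. PTCH1 to SMO was -1.28 ± 0.11, 0.22 ± 0.25 and 0.26 ± 0.61, higher at both later stages than at E40 without overlap (exact permutation p = 0.1 for each, 0.18 adjusted) and overlapping between E50 and E60 (p = 0.9). Thus SMO RNA exceeded PTCH1 RNA in every E40 library, and PTCH1 exceeded SMO in every later library but E60 library 3. GLI2 to GLI3 was -2.05 ± 1.20, -0.81 ± 0.14 and -1.82 ± 0.98 (exact permutation p = 0.1, 0.3 and 0.8 for E40 to E50, E50 to E60 and E40 to E60).

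**Figure D4:**
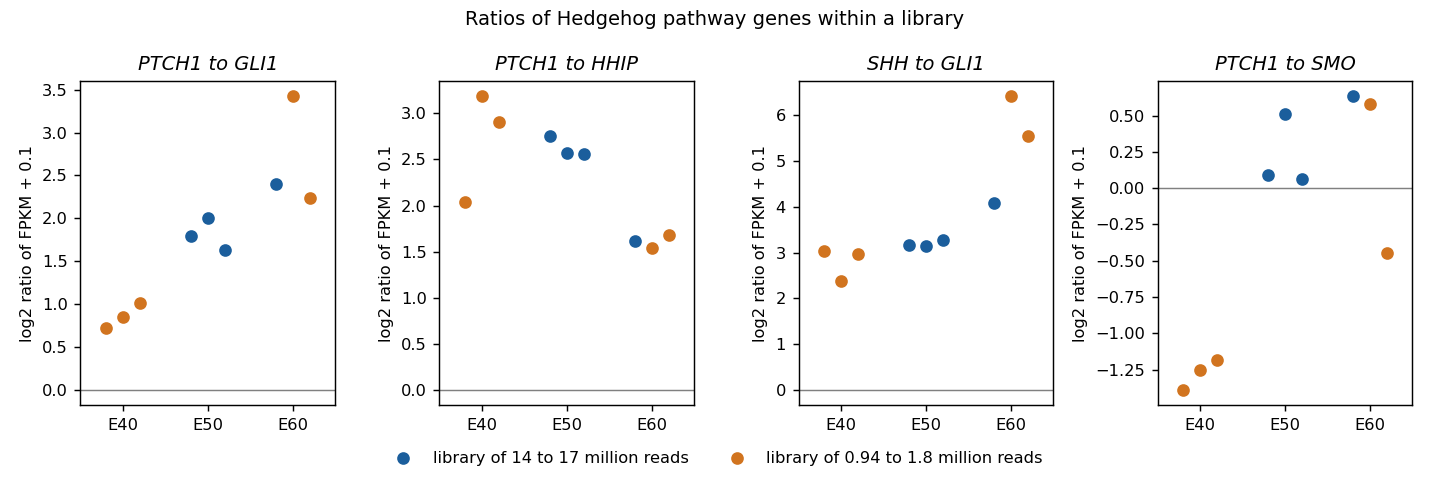
Log2 ratios of FPKM + 0.1 of 2 genes within each library, with libraries 1, 2 and 3 of a stage from left to right and axis ranges that differ between panels. The ratios of PTCH1 and of SHH to GLI1 are ordered by stage in all 9 libraries, the ratio of PTCH1 to HHIP is lowest at E60 in libraries of both depths, and the ratio of PTCH1 to SMO is lowest at E40.

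Of the 36 ratios among the 9 genes, 28 differed without overlap from E40 to E50, 16 from E50 to E60 and 23 from E40 to E60, or 77.8%, 44.4% and 63.9%. Over all pairs of genes tested the shares were 67.8%, 22.5% and 22.3%. The pairs share genes, so their counts are not independent, and the ratios named next were picked after all were seen. PTCH1 to GLI1, a pair of targets, was 0.73, 0.85 and 1.02 on the log2 scale at E40, 1.79, 2.01 and 1.63 at E50, and 2.40, 3.43 and 2.23 at E60. It was higher at each later stage in every library. SHH to GLI1 was ordered in the same way, with 2.39 to 3.04 at E40, 3.14 to 3.27 at E50, and 4.08, 6.42 and 5.53 at E60. The ligand thus stood higher over this target in E60 library 1, of the deeper set, as well as in libraries 2 and 3. PTCH1 to HHIP, the receptor over the inhibitor, was 2.04, 3.19 and 2.90 at E40, 2.75, 2.57 and 2.55 at E50, and 1.62, 1.53 and 1.68 at E60, with the 3 E60 libraries within a narrow range in spite of their depths. GLI1 to HHIP went from 1.31 to 2.34 at E40 through 0.56 to 0.96 at E50 to below 0 in all E60 libraries, at -0.78, -1.89 and -0.55.

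By mean FPKM, the order at E40 was SHH, SMO, PTCH1, GAS1, GLI1, BOC, GLI3, HHIP and GLI2, in which the ranges of PTCH1 and GAS1, of GAS1 and GLI1, and of GLI1 and BOC overlapped. At E50 it was SHH, PTCH1, SMO, GLI1, HHIP, GLI3, BOC, GLI2 and GAS1, with overlap of PTCH1 and SMO, of GLI3 and BOC, and of GLI2 and GAS1. GAS1 thus stood above GLI1 at E40 and last at E50. At E60 the order was SHH, PTCH1, SMO, HHIP, GLI1, BOC, GLI3, GAS1 and GLI2, and all neighbours overlapped except SHH with PTCH1 and GLI3 with GAS1.

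Of 40 further genes of the pathway, 33 were listed, 3 of them at 0 in every library (CDON, EVC2 and SPOP), and 28 passed the filter. Both other ligands were near the limit of detection, with 0 to 3 reads of IHH, the ligand of growing cartilage, and 0 to 10 reads of DHH, the ligand of Schwann and Sertoli cells, in any library. From E40 to E50, 9 of the 28 rose, beside 16.8% of all genes, and 0 fell, beside 21.8%, with a median log2 fold change of 1.36 beside 0.55 for all genes tested, and 15 rose over the 8 libraries, beside 30.5%. With median-ratio scaling 6 rose (12.2% of all genes) and HHAT fell (24.9%). SCUBE1, a secreted protein of the family that helps to release the lipid-bearing ligand, rose by 2.43, from 1.45, 2.002 and 1.403 FPKM to 10.1, 7.82 and 9.32 FPKM (adjusted p = 0.0130, limma). It stood at 10.9, 2.96 and 6.89 FPKM at E60, above every E40 library. Also among those that rose were the receptor LRP2, given no fold since its E40 libraries held 0 or 1 read, KIF3A and TULP3 of the cilium (1.77 and 1.36), GSK3B and CUL3, which act on GLI proteins (1.72 and 1.76), and the target-type genes BCL2 and LHX8 (2.28 and 1.45).

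HHAT, the enzyme that attaches palmitate to the ligand, had its highest values at E40. It was 14.3, 14.4 and 15.9 FPKM at E40, 9.81, 8.04 and 9.74 FPKM at E50, and 6.85, 6.09 and 7.40 FPKM at E60, so that the 3 stages did not overlap, although the difference of -0.43 between E50 and E60 turned to 0.34 after median-ratio scaling. Its E40 to E60 change was -1.12 over 9 libraries (adjusted p = 0.126) and -1.13 over the 8 (adjusted p = 0.0310, limma). SUFU, which holds GLI proteins in the cytoplasm, was 0.899 to 1.27 FPKM at E40, 3.41 to 3.73 at E50, and 3.10, 0.611 and 1.20 at E60, a split by depth like that of PTCH1, and its E40 to E50 change of 1.58 missed the threshold over 9 libraries (adjusted p = 0.0676). For the step to E60 none of the 28 passed over 9 libraries, beside 0.0714% of all genes. At an unadjusted p under 0.05 by limma were 12 of the 28, beside 5923 of the 19618 genes tested. Limma-voom on the recovered reads called 0 of the 28, and 61 genes of the whole table (0.311%). Over the 8 libraries, where the sets divide E50 from E60, 19 of the 28 fell, beside 39.1% of all genes. Among those were LRP2 and GPC3 (receptors), SCUBE3 (release), GPR161, KIF3A and TULP3 (cilium), SUFU, GSK3B, CSNK1A1, BTRC and CUL3 (GLI regulators), and CCND2, MYCN, FOXM1, BCL2, LHX6 and LHX8 (target-type genes), with log2 fold changes from -1.09 for TULP3 to -3.10 for BCL2, LRP2 left aside. After median-ratio scaling 4 of the 28 fell (12.2% of all genes), GSK3B, BTRC and BCL2 among them.

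As a description over the 9 libraries, with no test since the libraries fall into 2 sets, the genes most like SHH by Pearson's r of log2(FPKM + 0.1) were ISCA2 (0.971), SLC43A2 (0.966) and TMEM132D (0.965). Those most like PTCH1 were COL3A1 (0.996), MAGI2 (0.995) and FAF2 (0.993), and those most like GLI1 were PRPF19 (0.997), CADM1 (0.995) and TCF4 (0.994). Among the genes ranked, the closest ones of PTCH1 and GLI1 were thus nearer to them than those of SHH were to SHH.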

How the data were processed

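Total RNA of Dm3 germs was depleted of rRNA, made into directional libraries and read as paired ends. The authors aligned the clean reads with TopHat (build Sscrofa 10.2 per the submitters' processing notes) and deposited FPKM values per gene, with no further scaling between libraries stated. Stages were taken from the sample labels. The 9 genes and the lists of further pathway genes and markers were chosen with earlier results of these data known. Named beyond the 9 were pathway genes called over 9 or 8 libraries, IHH, DHH, SUFU, CDON and LRP2, and the 3 genes most like each of SHH, PTCH1 and GLI1. Some genes of these lists are counted but not reported by name here.

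The FPKM of each gene rose in steps worth 1 read, and whole reads were recovered within 0.02 reads for all 28963 genes above 0 (100%). A gene was tested where 2 libraries or more reached 1 FPKM. Tests used limma (version 3.58.1, R 4.3.3) on log2(FPKM + 0.1), with the prior variance following the mean, all stages in one fit and Benjamini-Hochberg adjustment. Both steps were run on simulated data. For the fit, these had the depths of the real libraries but no other difference between the 2 sets, so they cannot show how such a difference affects the calls. Because the values are FPKM and not counts, no count model was the main test, and limma-voom on the recovered reads was an alternative, with another pseudocount, no filter, median-ratio scaling, a replicate block, the library set as a term, fits within a set or of the compared stages only, and leaving out each library. Intervals are exact Poisson. The planned ratio of SHH to CDH1 could not be run with CDH1 at 0. Ratios, intervals and plots were made in Python 3.11.15 with scipy 1.17.1, pandas 2.3.3, matplotlib 3.10.9 and numpy 2.4.6. Genome positions and sequences were not used here.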

Additional observations from a re-analysis of the deposited data

How the results depend on the processing

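The 9 genes gave 495 values under the alternatives, of which 413 kept both direction and side of the threshold, 32 lost a call, 18 gained one and 32 turned direction. The most that depth allows is set by the shallower libraries, where GLI2, LRP2 and HHIP rest on a few reads, and by E60 library 1 standing alone beside E50. The cause of each change listed here was not tested, beyond what the smaller number of libraries or genes gives by construction.

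With median-ratio scaling, SMO (-0.0643) and GLI3 (-0.5199) turned from E40 to E50, with the same values over the 8 libraries. From E50 to E60 it turned SHH (0.7597), GLI3 (0.0991), HHIP (0.4907), GAS1 (0.00744) and BOC (0.1777), and over the 8 libraries likewise to 1.042, 0.3131, 0.2847, 0.0494 and 0.4137. All genes called then numbered 81 from E50 to E60 and 720 from E40 to E60 (7374 and 941 over the 8 libraries). Of the 9 genes it called 3 from E40 to E60, and 2 from E50 to E60 and 3 from E40 to E60 over the 8 libraries. Of the other pathway genes it called 1 from E40 to E60, and 4 from E50 to E60 and 1 from E40 to E60 over the 8 libraries. Scaling was applied within the sets and over the 8 libraries as a choice made after seeing the data.

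With the library set as a term, 50 genes, 0 of the 9 and 0 other pathway genes were called from E40 to E50, where SMO (-0.4405), GLI1 (-0.8852), GLI2 (-0.6206) and GLI3 (-0.1841) turned. From E50 to E60 SHH (0.0746) and HHIP (0.7864) turned, and from E40 to E60 the calls were 1155 genes, 2 of the 9 and 1 other. Within the deeper set, 832 genes and 2 other pathway genes were called from E50 to E60 (773 and 2 after scaling), and SHH and HHIP turned to 0.0746 and 0.7864 (0.1944 and 0.9028 after scaling). Within the shallower set 0 of the 9 were called from E40 to E60, and after scaling 0 of the 9 and 116 genes.

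With a pseudocount of 1, 27 genes were called from E50 to E60 and 696 from E40 to E60. Without the filter on low values 4 of 30 other pathway genes passed from E40 to E50, beside 23.1% of all genes. When only the compared stages were fitted, 15 of 28 other pathway genes passed from E40 to E50, beside 58.5% of all genes. In those fits 6 genes passed from E50 to E60, and 27 genes and 0 of the 9 from E40 to E60. By limma-voom on the recovered reads 61 genes were called from E50 to E60, and GLI2 turned to 0.1289 from E40 to E60.

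The replicate numbers do not pair the libraries. Same-numbered libraries of E50 and E60 deviated from their stage means with correlations of -0.515, -0.117 and -0.105. For E40 and E50 these were 0.083, -0.004 and 0.109, and for E40 and E60 -0.201, 0.009 and -0.142. A fit with the replicate block called 3 of 28 other pathway genes from E40 to E50, beside 26.0% of all genes, and left the 4 calls of the 9 genes there. It called 4 genes from E50 to E60, and 82 genes and 0 of the 9 from E40 to E60.

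Leaving out each library in turn, all genes called ranged from 58 to 10650 from E40 to E50, from 4 to 11529 from E50 to E60 and from 128 to 1181 from E40 to E60. Of the 9 genes, 0 to 5, 0 to 4 and 0 to 3 were called, and of the other pathway genes 0 to 15, 0 to 19 and 0 to 2. GLI3 ranged from -0.0225 to 0.2154 from E40 to E50, SHH from -0.246 to 0.2557 and HHIP from -0.8082 to 0.1258 from E50 to E60, and GLI2 from -0.9784 to 0.123 from E40 to E60. The ratio of GLI1 to GLI3 from E40 to E60 ranged from -1.065 to 0.1711, that of PTCH1 to SMO from E50 to E60 from -0.1555 to 0.3874, and that of GLI2 to GLI3 from E40 to E60 from -0.4543 to 0.5989. Among these fits, calls of the 9 genes from E50 to E60 appeared without E60 library 1 only.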
